A study of Mus musculus with 5 samples.

Results

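The 10 genes described here are the prolactin receptor gene Prlr, the growth hormone receptor gene Ghr, the kinase gene Jak2, the transcription factor genes Stat5a and Stat5b, the feedback inhibitor genes Cish, Socs1, Socs2 and Socs3, and Id2, a regulator of alveolar development. They were listed by name as genes of signalling from the prolactin and growth hormone receptors through JAK2 and STAT5. Of the 10, 9 had a probe set of their own among the 19938 genes measured, and where a gene had several, its brightest probe set by mean was used. Prlr was paired with no probe set by the platform annotation and was not analysed here. Whole mammary glands of 8-week-old FvB/N females were compared, 1 gland RNA and 1 array per mouse. The 3 cyclin D1 mice carried a cyclin D1 transgene together with MMTV-rtTA, and the 2 control mice carried MMTV-rtTA without it, so the transactivator is shared by both groups. rtTA is the tetracycline-controlled transactivator that switches a responder transgene on in the presence of doxycycline, and the MMTV promoter that drives it is active mainly in mammary epithelium, so other cells of the gland need not express the transgene. The labels give 7 days of doxycycline, in words that refer to a "KE" mutant of cyclin D1, and do not say whether the controls received the drug. Expression is given as the deposited log2 values.

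Prolactin and growth hormone bind related cytokine receptors that have no kinase of their own and signal through the bound tyrosine kinase JAK2. JAK2 phosphorylates the receptor and the transcription factors STAT5A and STAT5B, which pair, enter the nucleus and bind DNA at a short palindrome, the interferon-gamma activated site. In the mammary gland this pathway is needed for alveolar growth and for the expression of milk protein genes in pregnancy and lactation. CIS, the product of Cish, and the SOCS proteins are made in response to it and shut it down at the receptor or at JAK2.

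The arrays differed in spread, which bears on every value below. The SD of log2 expression across genes was 1.20 to 1.38 on the cyclin D1 arrays, against 0.73 and 0.93 on the control arrays, while the median gene stood at 2.72 to 2.82 on cyclin D1 arrays and at 2.81 and 2.83 on control arrays. The differences of the 9 genes are therefore also given on a second scale, called renormalized, on which a repeated quantile normalization forces the 5 arrays to 1 shared distribution of gene values. Cyclin D1 arrays correlated with one another across genes at Pearson r of 0.95 to 0.96, whereas the 2 controls correlated at 0.78. Ccnd1, the gene of the transgene product, stood at 4.63, 4.92 and 4.0 in cyclin D1 mice and at 4.04 and 3.49 in controls (log2 difference 0.75, limma adjusted p = 0.218), and control 1 lay above cyclin D1 mouse 3. Whether its probe set reads the transgene is not stated. Tests used limma across all genes with Benjamini-Hochberg adjustment, and a gene passed at an adjusted p under 0.05.

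Ghr, the receptor through which growth hormone acts, was the member that rose on the deposited scale. Its log2 expression was 6.86, 6.51 and 6.77 in the 3 cyclin D1 mice and 5.46 and 5.24 in the 2 controls. Every cyclin D1 value lay more than 1 log2 unit above the higher control, and mice of 1 group stood close together. The means were 6.71 ± 0.18 (SD, n = 3) in cyclin D1 glands and 5.35 ± 0.15 (SD, n = 2) in controls, a 2.58-fold rise (log2 difference 1.36, SE 0.17, limma adjusted p = 0.0214). In whole gland RNA, a change in the number of cells that express a gene and a change in RNA per cell cannot be told apart.

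The direction of the Ghr difference turned with the scale. Renormalized, Ghr stood at 6.12, 5.70 and 6.34 in cyclin D1 mice and at 7.06 and 5.89 in controls, and the groups overlapped. The renormalized difference was -0.42 (SE 0.39, limma adjusted p = 0.587). On the deposited scale the difference of Ghr did not pass without control 1 (1.47, adjusted p = 0.103) or without cyclin D1 mouse 1 (1.29, adjusted p = 0.107), 2 (1.47, adjusted p = 0.0656) or 3 (1.33, adjusted p = 0.0656). It passed without control 2 (1.26, adjusted p = 0.0458).

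**Figure D1:**
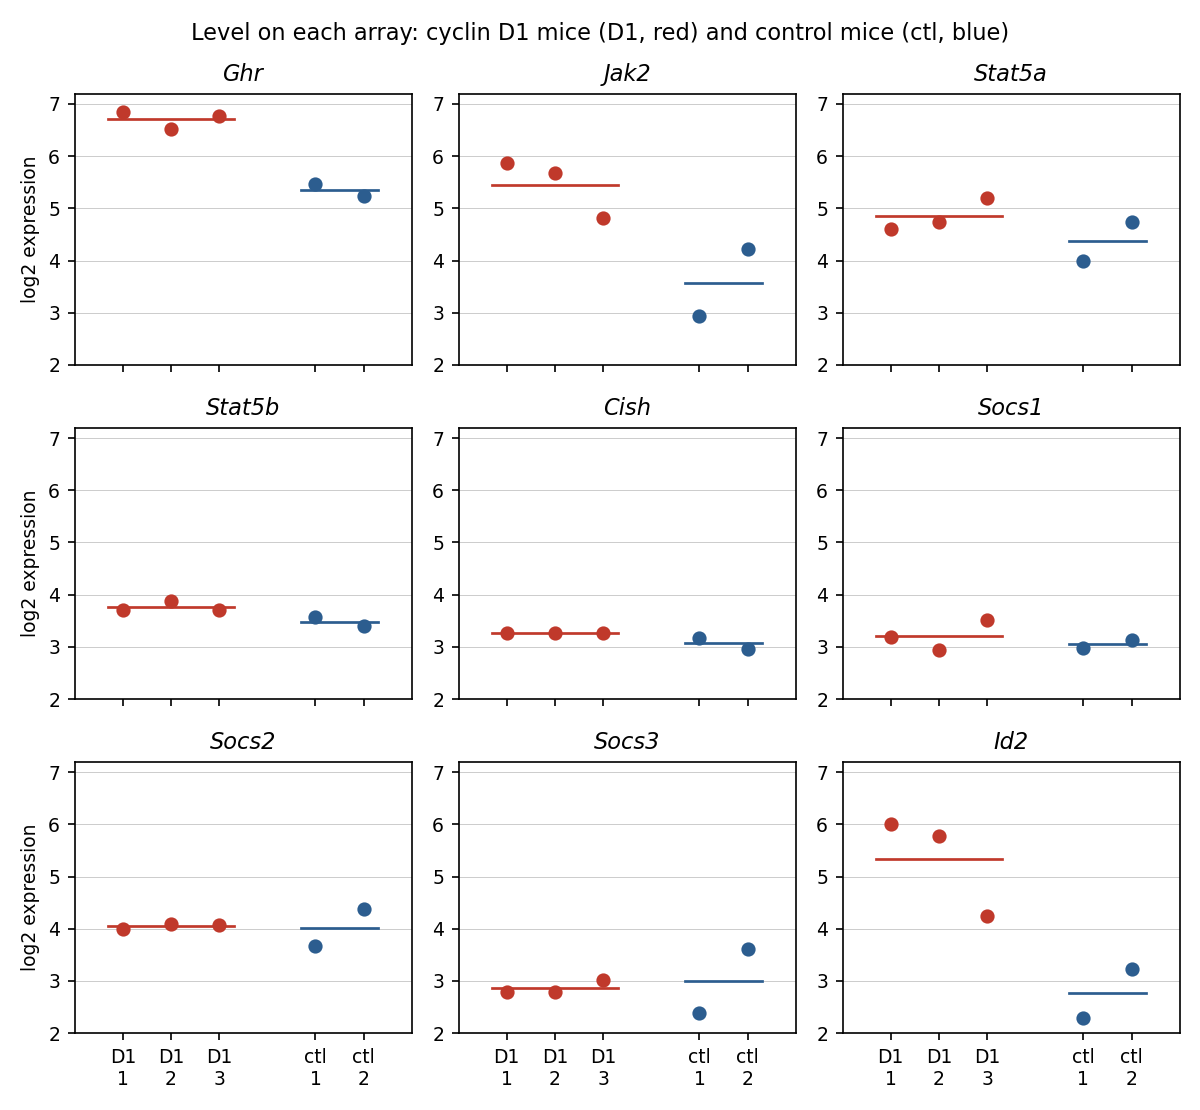
Log2 expression of the 9 measured genes (vertical axis) on each array, with cyclin D1 mice 1 to 3 in red and control mice 1 and 2 in blue, and a line at each group's mean. The 3 cyclin D1 points lie above both control points for Ghr, Jak2, Stat5b, Cish and Id2, by the widest margins for Ghr and Id2.

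Adipocytes express the growth hormone receptor, and their markers are given beside Ghr. The mean log2 level of 9 adipocyte markers was 5.77, 4.50 and 5.27 in cyclin D1 mice 1 to 3 and 4.93 and 5.0 in controls. The control values lay within the range of the cyclin D1 mice. Renormalized, the adipocyte mean was 5.35, 4.17 and 5.08 in cyclin D1 mice and 5.85 and 5.37 in controls, so that all 3 cyclin D1 values lay below both controls, and the renormalized difference was positive for 1 of the 9 markers, with a median of -0.72. The adipocyte list and Ghr thus both had lower renormalized means in cyclin D1 mice. Renormalized median differences were also negative for the fibroblast (-0.65), lymphocyte (-0.30) and skeletal muscle (-0.19) marker lists. They were positive for the luminal, myoepithelial, endothelial and macrophage lists. As deposited, 0 of the 9 markers passed the limma test in either direction, with 0 at an unadjusted p under 0.05, and 5 had positive differences. On that scale Ghr and the adipocyte list shared the order of the 3 cyclin D1 mice, with mouse 1 highest and mouse 2 lowest. The fibroblast marker list had that order too (5.46, 4.81 and 5.19). Of the controls, control 1 was the higher for Ghr and control 2 for the adipocyte list. The part of adipocyte content in the Ghr values was not tested.

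Jak2, the kinase bound to both receptors, stood higher in every cyclin D1 gland without passing the test. Its log2 expression was 5.87, 5.67 and 4.81 in cyclin D1 mice and 2.94 and 4.22 in controls. The groups did not overlap, but the controls lay 1.28 log2 units apart and cyclin D1 mouse 3 was closer to control 2 than to cyclin D1 mouse 1. The log2 difference was 1.87 (SE 0.49, limma adjusted p = 0.0873), and 1.13 after renormalization (SE 0.53, adjusted p = 0.329), where the groups overlapped. Leaving out control 1 brought the difference of Jak2 to 1.23, and leaving out control 2 to 2.51. When the remaining arrays were also renormalized it was 0.28 without control 1 and 2.15 without control 2.

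Stat5a and Stat5b, the transcription factors that JAK2 activates, are neighbouring genes on chromosome 11 and encode closely similar proteins, so a probe set of 1 gene can include signal of the other. Stat5a, the form that is needed for alveolar development in the mouse, stood at 4.61, 4.74 and 5.20 in cyclin D1 mice and at 3.99 and 4.74 in controls. The groups overlapped, with control 2 level with cyclin D1 mouse 2. Its log2 difference of 0.48 (SE 0.29, limma adjusted p = 0.348) became -0.66 after renormalization (adjusted p = 0.273), with renormalized values of 4.28, 4.25 and 4.93 in cyclin D1 mice and 4.96 and 5.34 in controls. On that scale all 3 cyclin D1 values of Stat5a lay below both controls, so the sign of its difference is not settled by these arrays.

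Stat5b, which carries much of growth hormone's action in the liver of male mice, varied less. It stood at 3.70, 3.88 and 3.71 in cyclin D1 mice and at 3.56 and 3.40 in controls. All 3 cyclin D1 values lay above both controls, by 0.13 log2 units at the closest. The log2 difference was 0.28 (SE 0.14, limma adjusted p = 0.273), and -0.13 after renormalization (adjusted p = 0.734), where the groups overlapped.

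The feedback inhibitors Cish and Socs3 carry the STAT5-type palindrome near their transcription start, and their promoters are shown for that reason, beside those of Jak2 and Id2, which differed most on both scales. Each is the RefSeq sequence of GRCm38.p6 from 250 bases before the start to 30 after it, 5′ to 3′ on the gene's strand. Capitals mark TTCNNNGAA, a palindrome that reads alike on both strands. The windows are chr9:107296409-107296688 on the plus strand for Cish, chr11:117969337-117969616 on the minus strand for Socs3, chr19:29251553-29251832 on the plus strand for Jak2 and chr12:25096063-25096342 on the minus strand for Id2.
Cish: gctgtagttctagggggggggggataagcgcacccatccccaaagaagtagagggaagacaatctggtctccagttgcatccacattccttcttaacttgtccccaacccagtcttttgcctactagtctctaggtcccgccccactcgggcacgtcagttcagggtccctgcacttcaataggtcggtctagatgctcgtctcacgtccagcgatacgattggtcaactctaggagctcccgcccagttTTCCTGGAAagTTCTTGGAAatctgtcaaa
Socs3: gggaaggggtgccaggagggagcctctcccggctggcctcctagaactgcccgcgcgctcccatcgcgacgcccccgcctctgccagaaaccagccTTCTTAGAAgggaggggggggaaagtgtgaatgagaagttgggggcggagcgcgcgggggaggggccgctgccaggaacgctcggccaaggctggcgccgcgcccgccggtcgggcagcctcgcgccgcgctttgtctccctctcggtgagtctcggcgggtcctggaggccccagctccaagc
Jak2: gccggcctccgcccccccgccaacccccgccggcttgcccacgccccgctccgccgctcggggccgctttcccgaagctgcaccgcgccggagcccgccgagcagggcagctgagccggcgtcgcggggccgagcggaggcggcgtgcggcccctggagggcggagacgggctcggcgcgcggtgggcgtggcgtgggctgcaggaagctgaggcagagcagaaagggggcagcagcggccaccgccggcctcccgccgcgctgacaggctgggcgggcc
Id2: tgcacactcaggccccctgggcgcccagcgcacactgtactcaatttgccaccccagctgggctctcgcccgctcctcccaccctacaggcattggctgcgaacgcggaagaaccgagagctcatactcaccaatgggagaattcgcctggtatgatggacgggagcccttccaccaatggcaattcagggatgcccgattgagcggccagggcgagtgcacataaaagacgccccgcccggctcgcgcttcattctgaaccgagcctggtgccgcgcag
The Cish window held 2 matches, TTCCTGGAA at bases 1 to 9 of the transcript and TTCTTGGAA at bases 12 to 20, and the Socs3 window held 1, TTCTTAGAA, at bases -154 to -146 from the start. Prlr, with 3 starts in the table, had 1 match, TTCTAGGAA, at bases -110 to -102 of the start on chromosome 15 whose window begins at 10223656. No match was in the windows of Ghr, Jak2, Stat5a, Stat5b, Socs1 or Id2, which says only that these letters are absent from 300 bases. Socs2 had no entry. In all, 3 of the 14 windows of the members held a match, against 8.3% of all 32851 windows of the table, of which 0.457% held 2 or more as Cish does. A match is a description of the letters and not a binding site.

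Cish, whose transcript is among the most direct readouts of STAT5 activity, barely differed. It stood at 3.27 in all 3 cyclin D1 mice, the same deposited value on each, and at 3.17 and 2.96 in controls. All cyclin D1 values lay above both controls, by 0.095 log2 units at the closest. The log2 difference was 0.20 (SE 0.13, limma adjusted p = 0.379), and 0.13 after renormalization (adjusted p = 0.697), where the groups overlapped. Exact ties of this kind were found in 19.9% of all genes for at least 2 arrays and in 268 genes for all 3 cyclin D1 arrays. RMA summarises probes by median polish, which can return the same value for several arrays, so the zero spread of Cish among the cyclin D1 mice is no measure of their likeness.

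Socs1, a direct inhibitor of JAK kinases, stood at 3.18, 2.95 and 3.52 in cyclin D1 mice and at 2.98 and 3.14 in controls. Both control values fell inside the cyclin D1 range, and the log2 difference of 0.16 was below its SE of 0.2 (limma adjusted p = 0.653), as was the 0.13 after renormalization (SE 0.19, adjusted p = 0.714). Socs2, the inhibitor that limits growth hormone action in mice, stood at 4.0, 4.09 and 4.08 in cyclin D1 mice and at 3.67 and 4.37 in controls. The cyclin D1 values lay together between the 2 controls, which were far apart. The log2 difference of Socs2 was 0.03 (SE 0.23, adjusted p = 0.938), and -0.72 after renormalization (adjusted p = 0.189), where all cyclin D1 values lay below both controls. Its other probe set (10372069) differed by -0.019 (SE 0.14, adjusted p = 0.945 over 21789 probe sets).

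Socs3, which blocks signalling from receptors of the interleukin 6 family and is induced by many cytokines, stood at 2.79, 2.79 and 3.02 in cyclin D1 mice and at 2.39 and 3.61 in controls. The 3 cyclin D1 values again lay between the controls, and control 1 was below the olfactory receptor floor, the average of that gene family on the same array, used as a rough level of genes not expressed in the gland. The log2 difference was -0.13 on both scales (SE 0.37, limma adjusted p = 0.84 as deposited, and SE 0.45, adjusted p = 0.892 renormalized). As deposited it was -0.74 without control 1 and 0.48 without control 2, so its sign follows which control is kept. The other probe set of Socs3 (10383010) differed by -0.22 (SE 0.14, adjusted p = 0.363 over all probe sets).

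Id2, an inhibitor of basic helix-loop-helix factors that is required for lobuloalveolar development in mice, had the largest difference of the 9 genes on both scales. It stood at 6.0, 5.78 and 4.25 in cyclin D1 mice and at 2.30 and 3.24 in controls. The groups did not overlap: the lowest cyclin D1 value, that of mouse 3, lay 1.01 log2 units above the higher control. The log2 difference was 2.57 (SE 0.6), a ratio of 5.96, with a limma adjusted p = 0.0712. Control 1 lay below the olfactory receptor floor, so this difference is inexact. Renormalized values were 5.37, 5.06 and 4.16 in cyclin D1 mice and 2.15 and 3.26 in controls, again without overlap, with a difference of 2.16 (adjusted p = 0.105). With any 1 array left out the difference of Id2 was 2.11 to 3.12. In limma it did not pass without cyclin D1 mouse 1 (adjusted p = 0.212), 2 (adjusted p = 0.212) or 3 (adjusted p = 0.0526). Nor did it with array weights (adjusted p = 0.133). It passed when genes dimmer than the median gene were left out (adjusted p = 0.0484) and with the replicate number as a block (3.12, adjusted p = 0.0295), a fit in which cyclin D1 mouse 3 has no partner and does not inform the difference.

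**Figure D2:**
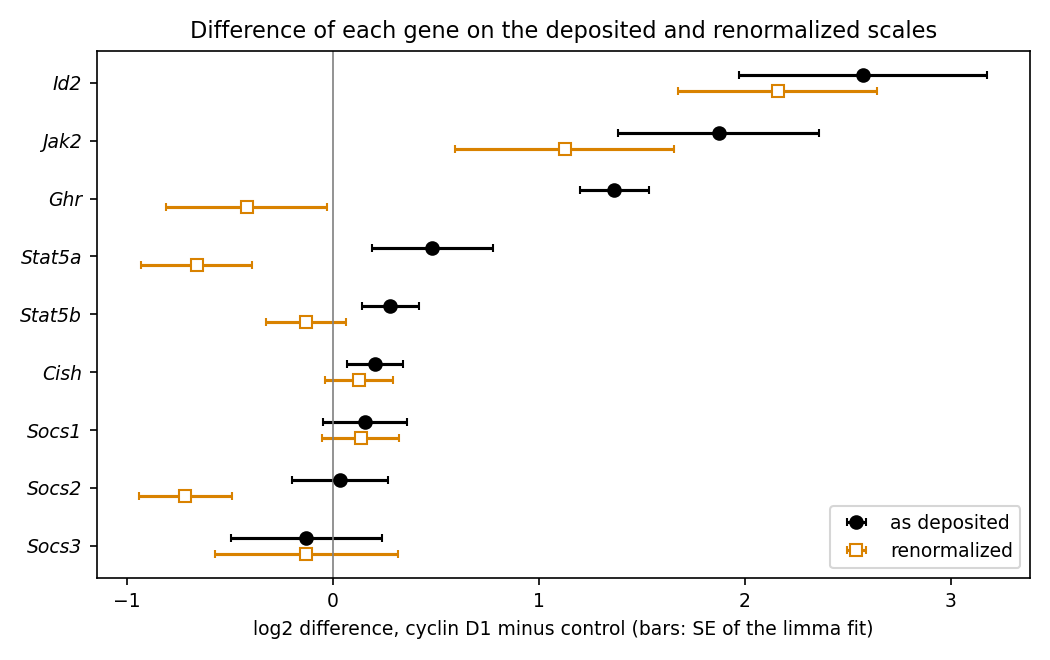
Log2 difference, cyclin D1 minus control, of each of the 9 genes (horizontal axis), as deposited (filled circles) and renormalized (open squares), with bars for the standard error of the limma fit. Id2 and Jak2 are positive on both scales, whereas Ghr, Stat5a, Stat5b and Socs2 are positive as deposited and negative after renormalization.

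As deposited, Jak2 and Id2 ranked the 5 arrays in the same order, from cyclin D1 mouse 1 through mice 2 and 3 to control 2 and control 1. Of all genes 2.97% had this order. Luminal epithelial markers are given beside these genes, since the pathway acts in that layer. The mean of 9 luminal markers was 4.28, 4.17 and 4.0 in cyclin D1 mice 1 to 3 and 3.27 and 3.38 in controls, without overlap. Of the 9, 2 rose and 0 fell, where 5.38% of all genes were called higher. They were Epcam, an epithelial adhesion molecule (log2 difference 2.49, limma adjusted p = 0.0184), and Cdh1, the cadherin of epithelial junctions (1.37, adjusted p = 0.0228). Epcam belongs to the brightest decile, in which 36% of all genes were called higher, and Cdh1 to the next, in which 13.4% were. Renormalized, the luminal mean was 4.01, 3.86 and 3.86 in cyclin D1 mice and 3.60 and 3.51 in controls. On that scale 7 of the 9 differences were positive, and Epcam and Cdh1 did not pass (limma adjusted p = 0.063 and 0.0801). The part of epithelial content in the values of Jak2 and Id2 was not tested.

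Counted together, 1 of the 9 genes was called higher (Ghr), where 5.38% of all genes were, and 0 were called lower, where 0.687% were. In limma 3 of the 9 had an unadjusted p under 0.05, as did 5244 of all 19938 genes. In 5 of the 9 (Ghr, Jak2, Stat5b, Cish and Id2) all 3 cyclin D1 values lay above both controls, as they did in 22.4% of all genes, and in 0 of the 9 all lay below, as in 22.6% of all genes. The median log2 difference of the 9 was 0.28, against -0.05 for all genes. After renormalization 0 of the 9 were called in either direction, against 0.256% of all genes higher and 0.105% lower. On that scale all 3 cyclin D1 values lay above both controls for Id2 alone among the 9 (20.1% of all genes) and below for Stat5a and Socs2 (19.5% of all genes), and the median of the 9 was -0.13 against -0.02 for all genes. Without control 1, cyclin D1 mouse 1 or cyclin D1 mouse 2 limma called 0 genes of the whole table (4973, 3568 and 3491 had an unadjusted p under 0.05).

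Level on the array has to be read beside these differences, because bright genes had positive differences in general. Ghr, Jak2 and Stat5a belong to the brightest decile by mean, in which the median log2 difference of 1994 genes was 1.59 and 36% were called higher. The difference of Ghr, 1.36, and that of Stat5a, 0.48, lay below that median and that of Jak2, 1.87, above it. Id2 and Socs2 belong to the next decile, with a median of 0.67, far below the 2.57 of Id2 and above the 0.03 of Socs2. Stat5b, Cish, Socs1 and Socs3 lay in deciles with medians of -0.06 to 0.17. After renormalization the 2 brightest deciles had medians of 0.36 and 0.11, and Ghr, Stat5a and Socs2 were below them while Jak2 and Id2 were above.

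**Figure D3:**
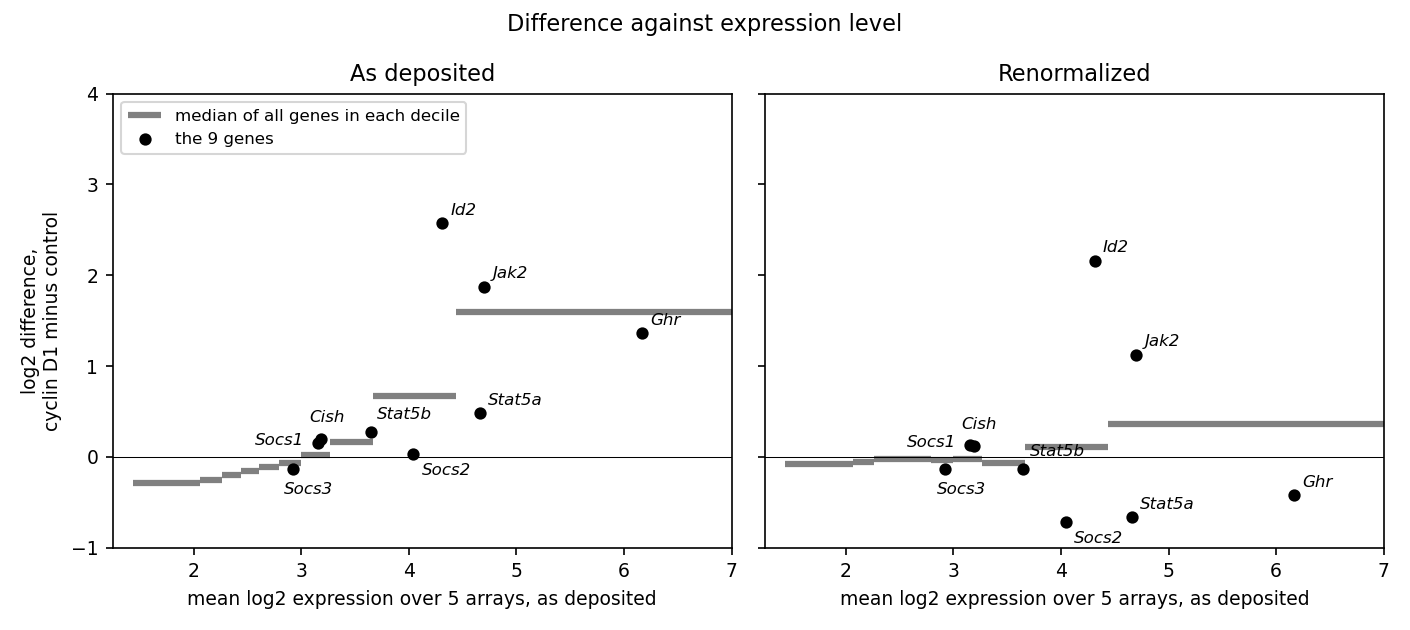
Log2 difference, cyclin D1 minus control (vertical axis), against mean log2 expression over the 5 arrays (horizontal axis, cut at 7), as deposited on the left and renormalized on the right; grey bars give the median difference of all genes in each decile of mean level and black points the 9 genes. Jak2 and Id2 stand above the bar of their decile in both panels, and Stat5a, Socs2 and Ghr below it.

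The wider pathway was described with 6 lists of 66 measured genes. Among JAK and STAT genes beyond the 9, 0 of 6 measured passed in limma, with 2 at an unadjusted p under 0.05. That level was reached by 5244 of all 19938 genes. Jak1, the kinase of interferon and interleukin 6 receptors, stood at 6.54, 7.69 and 6.17 in cyclin D1 mice and at 3.84 and 5.51 in controls (log2 difference 2.12, adjusted p = 0.119). Stat3, which drives involution after weaning in mice, differed by 1.28 (adjusted p = 0.17) and Stat6 by 0.2 (adjusted p = 0.396). The groups did not overlap for these 3 genes as deposited, and overlapped for each of them after renormalization.

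Of 13 further SOCS, PIAS and phosphatase genes 2 rose and 0 fell, where 5.38% of all genes were called higher. The deciles of the 2 by mean level had 13.4% (Socs4) and 3.06% (Socs5) of all genes called higher. Socs4 stood at 4.66, 4.62 and 4.71 in cyclin D1 mice and at 2.93 and 3.70 in controls (log2 difference 1.35, limma adjusted p = 0.0424). Socs5 stood at 3.74, 3.61 and 3.74 in cyclin D1 mice and at 3.0 and 3.07 in controls (0.66, adjusted p = 0.0493). Pias2, a SUMO ligase of the family named for STAT inhibition, differed by 0.94 without passing (adjusted p = 0.0553). Cish, Socs1, Socs2 and Socs3 did not pass, and a difference between these paralogs and them was not tested. After renormalization Socs4 differed by 0.91 and Socs5 by 0.55, neither passing.

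Of the ligands, prolactin and growth hormone had transcripts near the floor. Prl (prolactin) stood at 2.28, 2.19 and 2.38 in cyclin D1 mice and at 2.20 and 2.46 in controls, and Gh (growth hormone) at 2.34, 2.28 and 2.41 in cyclin D1 mice and at 2.34 in both controls. Both are pituitary hormones, named here after their values were known. The olfactory receptor floor was 2.03, 1.97 and 2.24 on the cyclin D1 arrays and 2.52 and 2.38 on the control arrays. Lep, the adipocyte hormone leptin, also named after its values were known, stood above that floor on all 5 arrays, at 2.94, 2.73 and 3.07 in cyclin D1 mice and at 2.65 and 3.55 in controls. Of 8 measured ligand genes 0 passed in limma, with 0 at an unadjusted p under 0.05. The 3 with the smallest p, the interleukin and colony-stimulating factor genes Csf2, Il3 and Il5, lay at or below the floor in both controls, so no difference is given for them.

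Among 12 other receptors that use JAK kinases 1 rose and 0 fell, where 5.38% of all genes were called higher and 13.4% in the decile of Lifr. Lifr, a receptor for leukaemia inhibitory factor, stood at 4.90, 5.21 and 4.44 in cyclin D1 mice and at 3.10 and 3.41 in controls, a 3.02-fold rise (limma adjusted p = 0.0352). Ifngr1, the ligand-binding chain of the interferon-gamma receptor, differed by 2.03 on the log2 scale (adjusted p = 0.0771). Il6st, the signalling chain shared by the interleukin 6 family, differed by 0.49 (adjusted p = 0.229), and by -1.18 after renormalization. Lifr differed by 1.13 on that scale (adjusted p = 0.0627).

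Of 16 adaptors and kinases of the other branches below the receptors, 4 rose and 0 fell, where 5.38% of all genes were called higher. Pik3r1 and Pik3ca belong to the brightest decile, in which 36% of all genes were called higher. Irs1 and Sos1 belong to the next, in which 13.4% were. Pik3r1, the regulatory subunit of phosphoinositide 3-kinase, stood at 7.53, 7.90 and 7.49 in cyclin D1 mice and at 5.49 in both controls, a 4.44-fold rise (limma adjusted p = 0.0157). Pik3ca, the catalytic subunit, rose 2.50-fold (adjusted p = 0.0213). Irs1, an insulin receptor substrate that JAK2 can phosphorylate, rose 2.77-fold (adjusted p = 0.0284), and Sos1, an exchange factor for RAS, 2.21-fold (adjusted p = 0.0274). Renormalized differences of these 4 were 0.33, 0.51, 1.09 and 0.32 in log2 units, none passing.

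Of 11 other STAT5-linked genes 1 rose and 0 fell. It was Elf5, an alveolar transcription factor that acts downstream of the prolactin receptor in mice, at 6.64, 7.39 and 6.52 in cyclin D1 mice and 2.94 and 3.89 in controls (log2 difference 3.43, limma adjusted p = 0.0192), and it differed by 2.58 after renormalization without passing (adjusted p = 0.063). Igfals, a carrier of insulin-like growth factors, differed by 0.38 (adjusted p = 0.163) and Igf2 by -0.41 (adjusted p = 0.203). Of 7 measured milk protein genes that STAT5 drives, 4 rose and 0 fell, among them Csn3 and Csn1s2a, and their mean level was 10.9, 11.4 and 10.4 in cyclin D1 mice and 7.96 and 8.70 in controls, and renormalized 10.48, 10.88 and 10.05 in cyclin D1 mice and 9.14 and 9.16 in controls. Over all the pathway lists 12 of 73 genes (16.4%) were called higher as deposited, where 5.38% of all genes were, 0 were called lower, and 0 were called after renormalization. Without the milk genes 8 of 66 (12.1%) were called higher. The lists were chosen with earlier results of these data known. The genes called higher were bright ones: 7 belong to the brightest decile, in which 36% of all genes were called higher, 4 to the next, in which 13.4% were, and 1 to the one after it, in which 3.06% were. Of the 6 lists without milk genes, the median log2 difference ran from -0.17 (other STAT5-linked genes) to 0.66 (SOCS, PIAS and phosphatase genes).

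**Figure D4:**
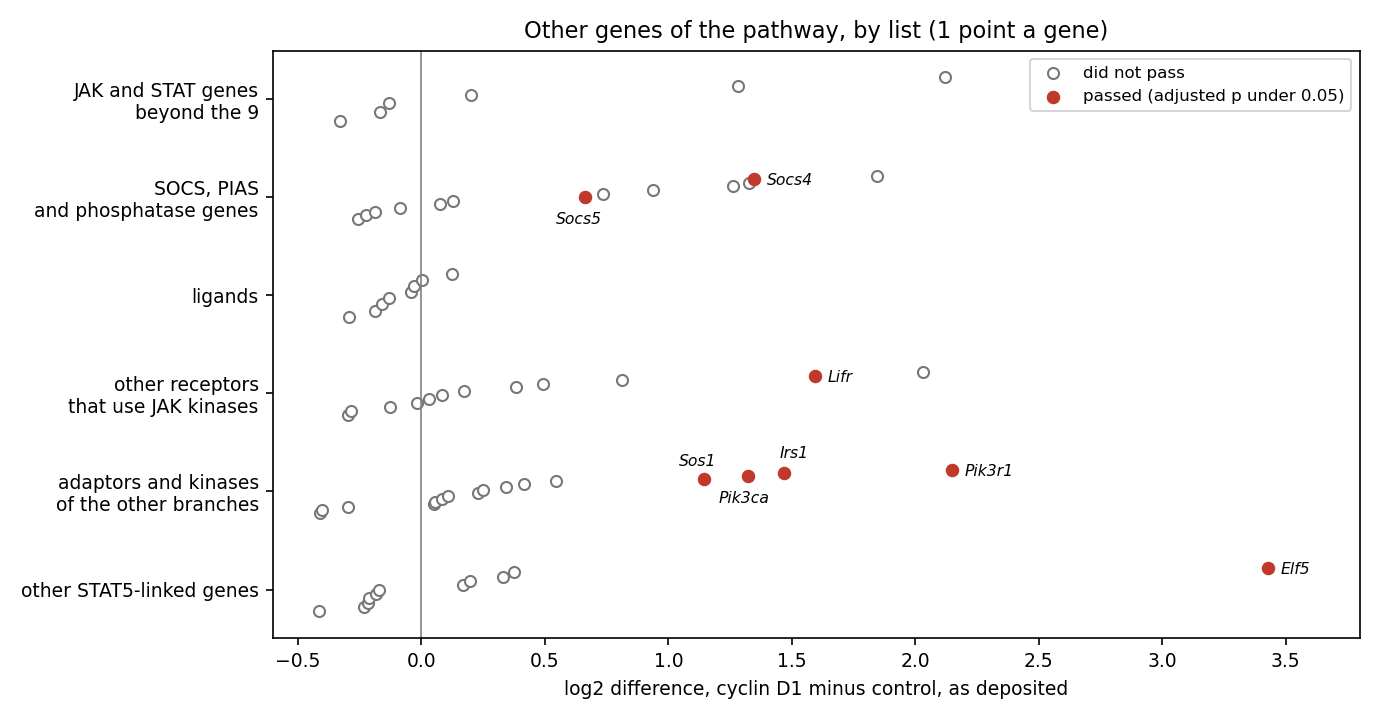
Log2 difference, cyclin D1 minus control, as deposited (horizontal axis) of the other pathway genes, 1 row a list and 1 point a gene, with genes that passed the limma test filled and named. The 8 named genes are all higher in cyclin D1 glands, by 0.66 (Socs5) to 3.43 (Elf5).

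As deposited, the means of some marker lists of other cells in the gland stood apart between the groups, and those of most overlapped. Besides the luminal list, the mean of the myoepithelial list of 8 genes was 3.68 to 3.95 in cyclin D1 mice and 3.11 to 3.44 in controls as deposited. Of its genes 4 had positive and 4 negative differences, with a median of 0.13. Among them 1 rose (Acta2, smooth muscle actin, by 2.48, limma adjusted p = 0.0349), while Myh11 (1.66) did not pass. Acta2 belongs to the brightest decile, in which 36% of all genes were called higher. Renormalized, the myoepithelial means were 3.66, 3.74 and 3.56 in cyclin D1 mice and 3.29 and 3.58 in controls, and the groups overlapped. The macrophage list of 7 stood at 3.46 to 4.48 in cyclin D1 mice and at 3.06 in both controls. In limma 0 of the 7 passed and 3 had an unadjusted p under 0.05, as did 5244 of all 19938 genes. Of the 7 differences 5 were positive and 2 negative. Those with the smallest p were Mrc1, at 1.11 (limma adjusted p = 0.0798), and Cd14, at 1.81 (adjusted p = 0.171). Renormalized, the macrophage means were 4.18, 3.54 and 3.38 in cyclin D1 mice and 3.26 and 3.13 in controls, again without overlap. The deposited macrophage means ranked the cyclin D1 mice as Jak2 and Id2 did, with mouse 1 highest and mouse 3 lowest. So did the luminal means (4.28, 4.17 and 4.0) and the endothelial means (3.56, 3.45 and 3.13). As deposited, the groups overlapped for the adipocyte, endothelial, fibroblast, lymphocyte and skeletal muscle lists, in which 0 genes passed in limma and 0 had an unadjusted p under 0.05. Of the leading members of these lists, Pnpla2 and Pparg differed by 0.73 and 0.76, Emcn and Kdr by 0.89 and 0.42, Dcn and Col3a1 by 1.07 and 0.43, Cd79b by -0.36 and Acta1 by -0.23. Positive differences were 5 of 9 adipocyte, 7 of 7 endothelial, 5 of 7 fibroblast, 3 of 8 lymphocyte and 0 of 8 skeletal muscle genes. After renormalization these counts were 1, 6, 3, 0 and 2. Cd79a did not exceed the floor in any cyclin D1 mouse or in control 2, so no difference is given for it, and Kdr, Cd14 and Myh4 were not above it in 1 control. The part of cell content in the values of the 9 genes was not tested.

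**Figure D5:**
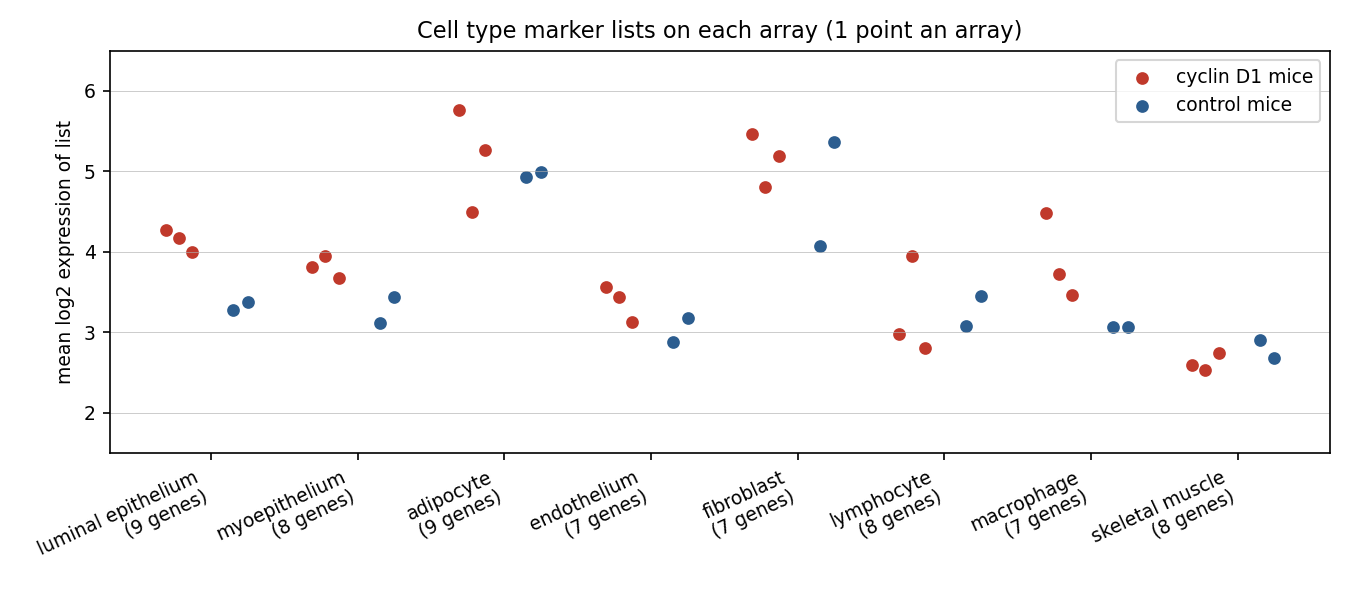
Mean deposited log2 expression (vertical axis) of 8 cell type marker lists on each array, with 1 point a mouse, cyclin D1 mice in red and control mice in blue. The luminal, myoepithelial and macrophage lists lie higher in all 3 cyclin D1 mice than in both controls, and the other lists overlap.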

How the data were processed

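Whole mammary gland RNA of 3 cyclin D1 and 2 control mice, grouped by sample title, was measured on 1 array each. The deposited values are log2 expression per probe set, for which the submitters' processing notes name RMA and Affymetrix Expression Console 1.1 as the authors' tools. The log base was inferred from the range of 0.83 to 12.9. RMA's background option, and any further arrays it was run with, are not stated. Without detection calls, precision rests on the number of arrays.

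Of 35556 probe sets, 21789 had 1 gene symbol in the platform annotation, 1621 several and 12146 none. Entrez identifiers of 21698 matched the GRCm38.p6 RefSeq table. The highest-mean probe set per symbol gave 19938 genes, with no filter on dim ones. The comparison of cyclin D1 with control mice was fitted in R 4.3.3 by limma 3.58.1, with 3 residual and 2.39 prior degrees of freedom, two-sided, with adjustment over all genes. The fit was tested on simulated data. The members and lists were chosen with earlier results of these data known. Named genes were all members, every list gene that passed, the 3 of each pathway list and the 2 of each marker list with the smallest p, and others where stated. The floor from olfactory receptor genes was also chosen after the data were seen. Alternatives were quantile normalization again, median centring with and without scaling by the median absolute deviation, eBayes with a trend or robust prior, averaged probe sets of a gene, genes above the median level only, array weights, replicate number as a block, leaving each array out in turn and, added after seeing the data, each array left out before quantile normalization and the second probe sets of Socs2 and Socs3.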

Additional observations from a re-analysis of the deposited data

How the results depend on the processing

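Over all genes 1072 were higher and 137 lower as deposited, 51 and 21 after quantile normalization again, 597 and 71 after scaling by the median absolute deviation, and 263 and 4 with array weights. An intensity trend gave 622 higher, leaving out dim genes (9969 tested) gave 56 lower and the replicate block 10 lower. With 1 array left out the counts ran from 0 to 1365 higher and from 0 to 1063 lower. Of the 9 members, 1 was called higher as deposited, 0 after quantile normalization again, scaling, an intensity trend or array weights, 2 with dim genes left out or with the replicate block, 0 to 1 with 1 array left out, and 0 to 3 when the rest was then quantile-normalized again, where 0 to 2 were called lower. Ghr did not pass with scaling (0.46, adjusted p = 0.443), an intensity trend (adjusted p = 0.0844) or array weights (adjusted p = 0.0594).

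Quantile normalization again reversed Ghr (-0.42), Stat5a (-0.66), Stat5b (-0.13) and Socs2 (-0.72), and scaling reversed Socs2 (-0.26), as did its other probe set (-0.019). With 1 array left out Socs2 ran from -0.32 to 0.38 and Socs3 from -0.74 to 0.48, the other 7 keeping their sign, with highest values of 1.47 for Ghr, 0.86 for Stat5a and 0.36 for Stat5b. When the rest was also renormalized, Ghr ran from -1.0 (without control 2) to 0.18 (without control 1), Stat5a from -0.96 to -0.51, Stat5b from -0.43 to 0.15, Cish from -0.066 to 0.34, Socs2 from -1.18 to -0.43 and Socs3 from -0.99 to 0.65, whereas Jak2 (0.28 to 2.15), Socs1 and Id2 (1.79 to 2.86) stayed positive. The causes were not tested. The replicate numbers were not taken as pairs: same-numbered mice deviated from their group means with a correlation of -0.03 for number 1 and 0.13 for number 2. Under the replicate block Id2 passed and the call of Ghr held (1.33, adjusted p = 0.044). A single lone control is assumed to vary like the cyclin D1 mice.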
